A study of Homo sapiens with 60 samples.

Results

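P2RY6, HAVCR1, LRRC25, TMCC1, PLAC8, RBM24, ZC3H12D, RNASET2, CEMIP and GALNT6 are 10 human genes with roles in receptor, membrane, RNA and sugar-chain biology. They were chosen by their higher levels with 1 or more of 3 herbal extracts in HepG2 cells, so the values in those extracts chose the genes and are given below as a description with no test. All 10 were found by Ensembl identifier among the 60675 rows of the expected count table, and all 10 were among the 16924 genes tested. HepG2 is a human hepatocellular carcinoma line. RNA was sequenced after 24 h with vehicle (DMSO, n = 3) or with 1 of 8 extracts at 3 doses, in 60 libraries. Hot-water extracts of the decoctions Yijin-tang (yijin, n = 3 per dose) and Soshiho-tang (soshiho, n = 2 per dose) and 70% ethanol extracts of Schisandrae Fructus (schisandra), Liriopis seu Ophiopogonis Tuber (liriope), Longan Arillus (longan) and Zizyphi Semen (zizyphus, n = 3 per dose for these 4) were given at 500, 100 and 20 µg/mL. Ethanol extracts of Polygalae Radix (polygala, 250, 50 and 10 µg/mL) and of aucklandia (280, 56 and 11.2 µg/mL) had 1 library per dose. For the vehicle, DMSO is given as 0.1% in the labels but as 2% in the series text. Nothing in the labels states that replicates were separate cultures, and p-values therefore reflect the spread between these libraries alone, which may be technical.

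Several of the genes act at the cell surface. P2RY6 encodes a G protein-coupled receptor for extracellular UDP, HAVCR1 a surface receptor for phosphatidylserine on dying cells that is best known as an injury marker of the kidney tubule, and LRRC25 a leucine-rich repeat membrane protein described in myeloid cells as a brake on RIG-I signalling. TMCC1 encodes a membrane protein of the endoplasmic reticulum found at its contacts with endosomes, and PLAC8 a small cysteine-rich protein first found in placenta. RBM24 regulates splicing, mainly in heart and skeletal muscle, ZC3H12D belongs to a family of zinc finger ribonucleases that break down mRNA in immune cells, and RNASET2 is a ribonuclease of lysosomes that is also secreted. CEMIP takes part in the breakdown of hyaluronan, a large sugar polymer of the matrix, and GALNT6 adds the first sugar in mucin-type O-glycosylation.

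Each library held between 20.7 and 38.0 M expected counts in total, where M stands for mega. Levels are given as CPM, the count divided by the normalized library size in M, and they are compared within a gene, not between genes. P2RY6 had 3 to 32 counts per library, LRRC25 8 to 145, HAVCR1 17 to 95, RBM24 25 to 457 and GALNT6 6 to 238, so single libraries are imprecise for these 5 genes. The other 5 genes had at least 48 counts in every library. The first low-dose library of schisandra and the second high-dose library of liriope stood farthest from the other libraries of their groups. All 9 hepatocyte markers were present in every library, with a summed level of 18173 to 51938 CPM. Since several of the genes are best known from leukocytes, 11 leukocyte markers were read as well: 7 stayed under 1 CPM in every library, among them PTPRC, CD3E and MS4A1, 1 (FCGR3A) was at 0 throughout, and LYZ and CD68 carried the summed level of 500.7 to 1754 CPM. Summed markers were 6.43 to 21.4 CPM for fibroblasts and 1.56 to 6.57 CPM for endothelium.

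The genes lie apart from each other in the genome (GRCh38, GENCODE 29). P2RY6 is on chromosome 11 at 73264505 to 73298617, HAVCR1 on chromosome 5 at 157029413 to 157059119, LRRC25 on chromosome 19 at 18391144 to 18397617 and TMCC1 on chromosome 3 at 129647792 to 129893606. PLAC8 is on chromosome 4 at 83090048 to 83137075 and CEMIP on chromosome 15 at 80779343 to 80951776. GALNT6 is on chromosome 12 at 51351247 to 51392867. The other 3 are on chromosome 6, RBM24 at 17281346 to 17293875, ZC3H12D at 149446795 to 149485061 and RNASET2 at 166929504 to 166957191. RNASET2 overlaps a gene model on its own strand, AL159163.1, with at most 0.855 CPM, and TMCC1 holds the intronic model AC083799.1 at 1.14 to 3.70 CPM, so reads could be split there. The end of CEMIP overlaps MESD on the opposite strand, which the directional library kit separates where strand was used in counting.

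Upstream windows of 4 of the genes are shown, namely those that lay wholly or mostly before the start of the gene model, so that their letters can be compared. RefSeq promoter windows (GRCh38.p14) were held for 7 of the 10 genes. The windows are printed 5′ to 3′ on the strand of the gene. Each ends at the base before its RefSeq start, or before the start of the gene model where that comes first. GCGTG or its reverse complement CACGC, the core letters of the AhR response element, is in capitals.
TMCC1, chr3:129893712-129893961, minus strand: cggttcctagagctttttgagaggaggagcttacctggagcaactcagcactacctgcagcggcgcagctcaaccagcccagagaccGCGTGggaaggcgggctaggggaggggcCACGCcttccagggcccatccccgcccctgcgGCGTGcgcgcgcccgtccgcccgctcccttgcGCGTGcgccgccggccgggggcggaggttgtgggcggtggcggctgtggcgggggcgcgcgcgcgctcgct
CEMIP, chr15:80779120-80779342, plus strand: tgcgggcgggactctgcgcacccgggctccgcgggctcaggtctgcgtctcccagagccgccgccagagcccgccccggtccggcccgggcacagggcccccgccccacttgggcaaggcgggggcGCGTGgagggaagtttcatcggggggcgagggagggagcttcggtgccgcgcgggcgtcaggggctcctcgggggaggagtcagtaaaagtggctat
HAVCR1, chr5:157059120-157059366, minus strand: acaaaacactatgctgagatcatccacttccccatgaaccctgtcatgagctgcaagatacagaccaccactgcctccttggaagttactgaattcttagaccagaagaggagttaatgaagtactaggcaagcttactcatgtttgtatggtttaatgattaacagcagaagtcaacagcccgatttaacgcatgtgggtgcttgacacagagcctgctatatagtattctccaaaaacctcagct
LRRC25, chr19:18397623-18397872, minus strand: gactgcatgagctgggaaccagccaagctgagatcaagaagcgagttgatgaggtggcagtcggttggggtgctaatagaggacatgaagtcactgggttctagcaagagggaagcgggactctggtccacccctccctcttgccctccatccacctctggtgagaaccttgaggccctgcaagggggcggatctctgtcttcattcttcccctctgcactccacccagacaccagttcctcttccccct
The TMCC1 window held GCGTG at 4 places on either strand and the CEMIP window at 1, and the windows of HAVCR1 and LRRC25 held none. Over all 11 windows of the 7 genes, read over 250 bases before each start and on both strands, 5 held it, as did 32.2% of 35116 such windows in the RefSeq table. A match in letters is a description of the window and not a binding site.

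In the high-dose libraries of yijin, soshiho and schisandra the 10 genes stood above the low dose of the same extract, as their choice implies. The high-dose libraries lay above every low-dose library for 10 of 10 genes in yijin and in soshiho and for 9 of 10 in schisandra, where GALNT6 was the exception. The share of all genes with such a separation was not counted, and 2 libraries per dose, as in soshiho, separate more easily than 3. Over all genes tested, 3.78% passed the test as higher between high and low dose in yijin, 2.81% in soshiho and 3.92% in schisandra. Passing a test is a different measure from separation. No conclusion is drawn from the separation of the 10 genes, since values in these extracts chose them. The summed leukocyte markers, nearly all of it LYZ, were also higher at these high doses, at 1645 to 1735 CPM in yijin, 1560 to 1614 CPM in soshiho and 1656 to 1754 CPM in schisandra, against 1225 to 1231, 1158 to 1198 and 1157 to 1370 CPM at the low doses. PTPRC, CD3E and MS4A1 had at most 2 counts in any library. The sizes of the differences of the 10 genes varied by gene and extract. The largest was LRRC25 in soshiho, 5.72-fold, and the smallest GALNT6 in schisandra, 1.14-fold.

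Among the surface proteins, LRRC25 had the largest difference in soshiho, and the smallest in schisandra. In soshiho its high-dose libraries held 5.66 and 5.86 CPM, its medium-dose libraries 1.67 and 2.34 CPM and its low-dose libraries 1.03 and 0.979 CPM, against 0.482, 0.454 and 0.637 CPM in vehicle. The 3 doses did not overlap, and even the low dose lay above all vehicle libraries. In yijin LRRC25 went from 0.424, 0.372 and 0.644 CPM at the low dose to 1.19, 0.926 and 1.23 CPM at the high dose, and in schisandra from 0.502, 0.509 and 0.496 to 0.794, 1.09 and 0.630 CPM. On the log2 scale the high dose exceeded the low dose by 2.52 ± 0.27 (SE) in soshiho, 1.21 ± 0.28 in yijin and 0.74 ± 0.28 in schisandra. Ordered over all 25 groups, soshiho high and soshiho medium came first without overlap with the next group, and from yijin high downward neighbouring groups overlapped as far as the tenth.

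HAVCR1, the phosphatidylserine receptor, was at like levels in the 3 high-dose groups. It reached 2.78, 2.54 and 3.36 CPM with schisandra, 3.04 and 2.43 CPM with soshiho and 2.31, 3.14 and 2.49 CPM with yijin. Low doses held 0.793, 1.18 and 1.11 CPM, 1.40 and 1.75 CPM, and 1.23, 1.34 and 1.45 CPM in the same order. The log2 difference was 1.52 ± 0.19 in schisandra, 0.99 ± 0.18 in yijin and 0.80 ± 0.22 in soshiho. The 3 high-dose groups were the highest of all 25 and overlapped each other, while the fourth group, zizyphus high, lay below them at 1.94, 2.15 and 1.31 CPM.

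P2RY6, the UDP receptor, was the least precisely measured of the 10. Its high-dose libraries held 0.995, 0.694 and 1.19 CPM in yijin, 1.10 and 0.849 CPM in soshiho and 1.15, 0.888 and 0.630 CPM in schisandra. Its low-dose libraries stayed between 0.291 and 0.509 CPM in the same 3 extracts, and vehicle held 0.407, 0.454 and 0.364 CPM. High and low doses were apart in all 3 extracts, by a log2 of 1.07 ± 0.32, 1.39 ± 0.40 and 1.31 ± 0.33. The highest single group was the 1 medium-dose library of aucklandia, at 1.16 CPM from 28 counts, and the next 3 groups overlapped each other.

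**Figure D1:**
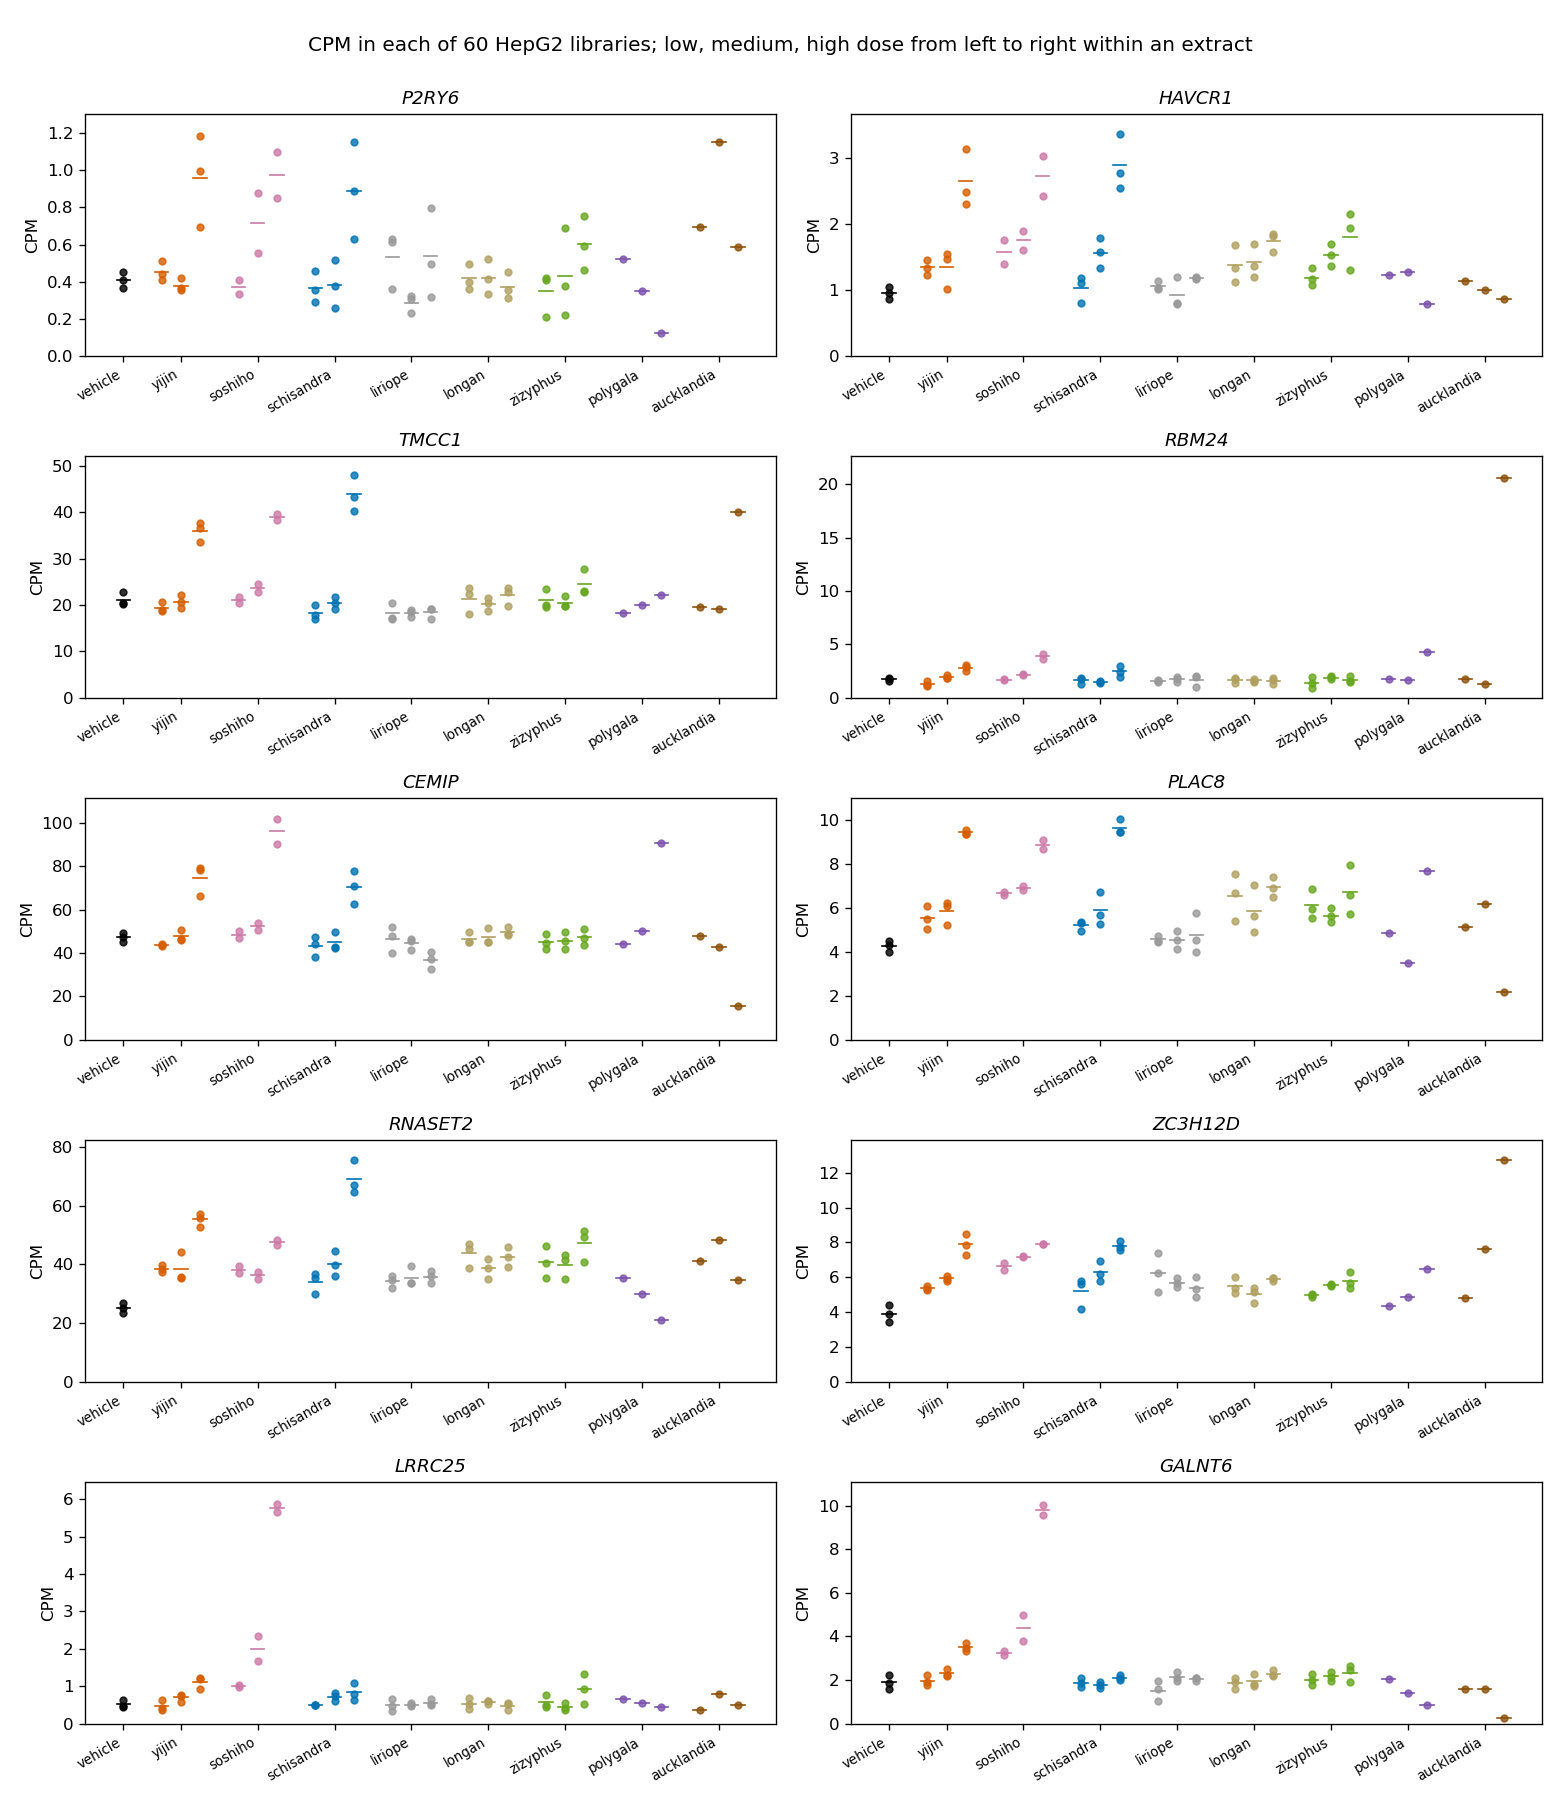
CPM (y axis, linear from 0) of each gene in every library, by extract (x axis), with low, medium and high dose from left to right; each point is 1 library and the line is the group mean. LRRC25 and GALNT6 stand out in soshiho, RBM24 at 20.6 CPM in high-dose aucklandia, and RNASET2 in vehicle lies below all low doses.

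TMCC1, the membrane protein of the endoplasmic reticulum, was highest with schisandra. Its high-dose libraries held 40.2, 48.0 and 43.3 CPM in schisandra, 39.6 and 38.4 CPM in soshiho and 33.5, 37.6 and 36.6 CPM in yijin. Low-dose libraries held 16.9, 17.8 and 20.1 CPM, 20.4 and 21.7 CPM, and 18.7, 20.6 and 18.8 CPM. The log2 difference was 1.27 ± 0.088 in schisandra and 0.89 in the others (± 0.089 in yijin and ± 0.11 in soshiho), and the highest 4 groups, with high-dose aucklandia second, did not overlap their neighbours in the order.

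PLAC8 differed little between the 3 high-dose groups, with 9.45, 9.49 and 10.1 CPM in schisandra, 9.39, 9.39 and 9.58 CPM in yijin and 8.70 and 9.10 CPM in soshiho. The low doses differed more, with 6.62 and 6.73 CPM in soshiho against 4.97, 5.33 and 5.38 CPM in schisandra and 5.05, 5.50 and 6.08 CPM in yijin. The log2 difference was 0.90 ± 0.12 in schisandra, 0.77 ± 0.12 in yijin and 0.42 ± 0.14 in soshiho. PLAC8 in soshiho was thus a smaller step from a higher low dose.

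Among the genes whose products act on RNA, RBM24 was highest outside the 3 extracts, with aucklandia and polygala, which are described further on. Within them it was highest with soshiho, at 4.09 and 3.64 CPM against 1.65 and 1.75 CPM at the low dose. In yijin it held 2.87, 3.04 and 2.53 CPM against 1.14, 1.56 and 1.21 CPM, and in schisandra 2.42, 1.98 and 2.98 CPM against 1.296, 1.88 and 1.75 CPM. High and low libraries were closest in schisandra, where they were 0.60 ± 0.19 apart on the log2 scale, against 1.18 ± 0.23 in soshiho and 1.10 ± 0.20 in yijin. Vehicle, at 1.74, 1.53 and 1.86 CPM, lay above 2 of the 3 low-dose yijin libraries, so that the yijin difference against vehicle was only 0.72 ± 0.19.

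RNASET2, the lysosomal and secreted ribonuclease, was highest with schisandra, at 67.1, 64.8 and 75.6 CPM against 35.4, 29.7 and 36.7 CPM at the low dose. It held 57.2, 55.9 and 52.8 CPM in yijin against 37.2, 38.5 and 39.9 CPM, and 46.7 and 48.3 CPM in soshiho against 37.2 and 39.3 CPM. The log2 difference was 1.03 ± 0.098 in schisandra, 0.52 ± 0.099 in yijin and 0.32 ± 0.12 in soshiho, and schisandra high and yijin high overlapped no neighbour in the order of the 25 groups. ZC3H12D, the ribonuclease of the zinc finger family, stood at 7.28, 8.50 and 7.88 CPM in yijin, 7.94 and 7.88 CPM in soshiho and 7.76, 8.08 and 7.56 CPM in schisandra, which overlapped each other. Its low doses were 5.47, 5.28 and 5.32 CPM, 6.80 and 6.44 CPM, and 4.20, 5.60 and 5.79 CPM, and the log2 differences were 0.56 ± 0.10, 0.26 ± 0.12 and 0.60 ± 0.10.

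Of the 2 genes for extracellular and secretory sugar chains, CEMIP was highest with soshiho, at 102 and 90.3 CPM against 50.1 and 46.9 CPM at the low dose. Yijin gave 66.2, 79.3 and 78.1 CPM against 43.3, 44.2 and 43.9 CPM, and schisandra 62.6, 71.0 and 78.0 CPM against 38.2, 44.1 and 47.5 CPM. The log2 differences were 0.99 ± 0.11, 0.77 ± 0.089 and 0.71 ± 0.089, with the yijin and schisandra high doses overlapping. GALNT6, the O-glycosylation enzyme, held 10.0 and 9.58 CPM at the high dose of soshiho, 3.79 and 4.98 CPM at the medium dose and 3.16 and 3.34 CPM at the low dose, against 1.59, 1.86 and 2.23 CPM in vehicle. As for LRRC25, no dose of soshiho overlapped another or vehicle. In yijin GALNT6 went from 2.25, 1.78 and 1.89 to 3.34, 3.70 and 3.48 CPM, and in schisandra it was 1.67, 1.88 and 2.10 CPM at the low dose and 2.24, 2.02 and 2.10 CPM at the high dose. The log2 differences were 1.59 ± 0.16 in soshiho, 0.84 ± 0.15 in yijin and 0.19 ± 0.16 in schisandra.

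On the log2 scale the mean of the medium dose lay nearer the low than the high dose for most of the genes. Medium-dose libraries lay above all low-dose libraries for 3 of 10 genes in yijin, 8 of 10 in soshiho and 2 of 10 in schisandra, and high-dose libraries lay above all medium-dose libraries for 10, 9 and 9 of 10. The share of all genes with such separations was not counted. Soshiho had 2 libraries per dose against 3 in yijin and schisandra, so its doses separate more easily. Without the first low-dose library of schisandra and the second high-dose library of liriope, the 10 schisandra differences ran from 0.09 for GALNT6 to 1.34 for HAVCR1 on the log2 scale, and RBM24 went from 0.60 to 0.44 and ZC3H12D from 0.60 to 0.45.

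Vehicle gave a second reference, but the choice of the genes may have used it, so it is not independent of that choice. For 4 of the genes vehicle lay below most of the low doses, a count for which the share over all genes was not taken. RNASET2 held 25.0, 23.5 and 26.9 CPM in vehicle, under all 19 low-dose libraries of the 8 extracts, which ran from 29.7 to 47.1 CPM with a median of 37.2 CPM. PLAC8 lay above every vehicle library in 18 of 19 low-dose libraries, ZC3H12D in 17 and HAVCR1 in 16. For the other 6 genes it was 2 to 7 of 19. In the other direction, TMCC1 lay below every vehicle library in 12 of 19 low-dose libraries and CEMIP in 11. Against vehicle, the low dose of longan was higher by a log2 of 0.80 ± 0.10 for RNASET2, 0.62 ± 0.13 for PLAC8 and 0.49 ± 0.11 for ZC3H12D, at the lowest dose of an extract with no call among the 10 genes between high and low dose. With library totals alone as the scale, all low-dose values would move up against vehicle by a further 0.08 to 0.14 on the log2 scale, depending on the extract. The vehicle libraries carry a sample code shared with no treated library, so vehicle and code cannot be told apart. The extracts share codes in pairs: yijin with soshiho, schisandra with liriope, longan with zizyphus, and polygala with aucklandia. Differences in level between extracts of different pairs likewise cannot be told apart from code.

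**Figure D2:**
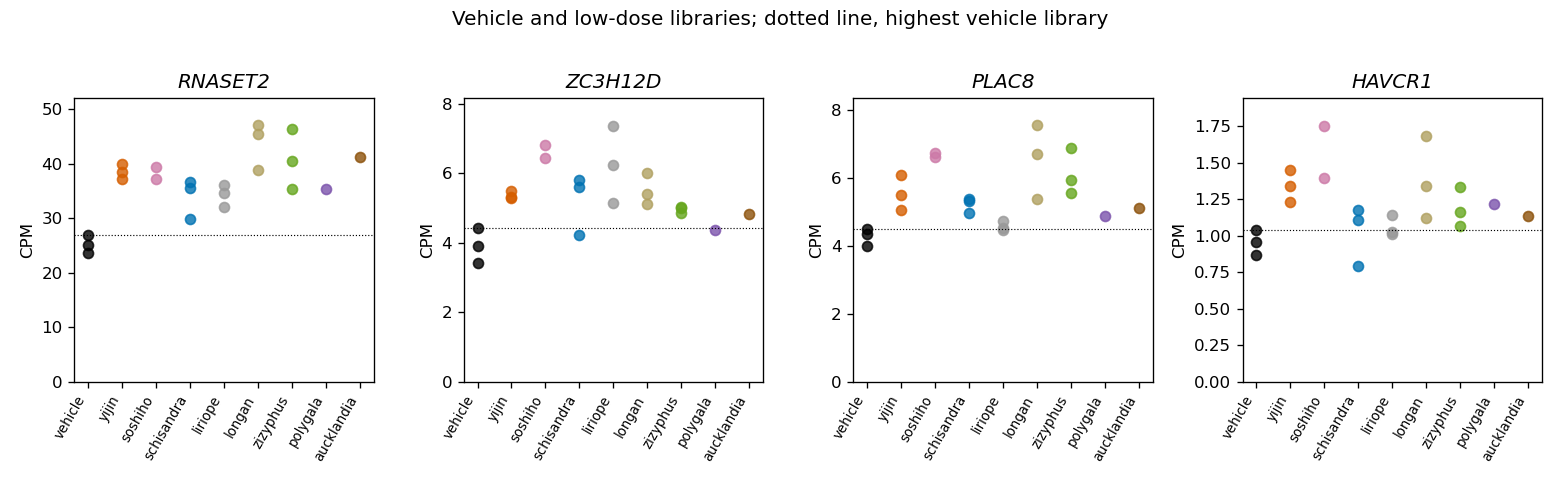
CPM (y axis, linear from 0) of RNASET2, ZC3H12D, PLAC8 and HAVCR1 in the vehicle and low-dose libraries of each extract (x axis); each point is 1 library and the dotted line is the highest vehicle library. All 19 low-dose libraries lie above the line for RNASET2, 17 for ZC3H12D, 18 for PLAC8 and 16 for HAVCR1.

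Liriope, longan and zizyphus did not take part in the choice of the genes, so they were tested. No gene of the 10 passed between high and low dose, with edgeR's quasi-likelihood test and Benjamini-Hochberg adjustment over all genes, in liriope (0 of 10, where 0.0295% of all genes passed), longan (0 of 10, 0.0177%) or zizyphus (0 of 10, 0.0355%). None passed for the mean of the 3 extracts, 9 high against 9 low libraries (0 of 10, 0.0768% of all genes), or as differing between the 3 (0 of 10, 0.00591%). With so few calls among all genes, 0 of 10 cannot show whether the 10 genes differ from the rest. At an unadjusted p under 0.05 there were 2, 0 and 6 genes in liriope, longan and zizyphus, 2 for the mean and 2 for the difference between extracts. Over all genes tested, 8.04%, 2.33% and 4.65% had such a p in the 3 extracts, 6.4% for the mean and 3.62% for the difference. DESeq2 called 0 in each of the 5 tests, with 2, 0, 3 and 2 at an unadjusted p under 0.05 in the first 4, and gave no adjusted p for 7 of the genes in liriope and in the mean.

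The 10 zizyphus differences were all above 0, from a log2 of 0.07 ± 0.091 for CEMIP to 0.81 ± 0.35 for P2RY6. The share of all genes above 0 in zizyphus was not counted. Levels of the 10 genes correlate with each other over the groups, so these are not 10 separate observations. HAVCR1 held 1.94, 2.15 and 1.31 CPM at the high dose of zizyphus and 1.34, 1.07 and 1.16 CPM at the low dose, with 1 high-dose library inside the low-dose range, and its log2 difference of 0.59 ± 0.20 missed the threshold (edgeR adjusted p = 0.724). LRRC25 held 0.539, 1.32 and 0.923 CPM against 0.458, 0.492 and 0.773 CPM (0.65 ± 0.27). GALNT6, which hardly differed in schisandra, was the gene with the smallest p for the mean of the 3 extracts, at 0.30 ± 0.091 (edgeR adjusted p = 0.422), and HAVCR1 came next at 0.37 ± 0.11 (edgeR adjusted p = 0.448).

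CEMIP went the other way in liriope. Its high-dose libraries held 37.1, 32.6 and 40.3 CPM and its low-dose libraries 40.0, 47.9 and 51.8 CPM, which overlap by 1 library. The log2 difference of -0.35 ± 0.091 did not pass (edgeR adjusted p = 0.368), and without the second high-dose library of liriope it was -0.27. With no filter on low counts CEMIP was called (edgeR adjusted p = 6.79e-05), and with a block for the replicate number as well (0.0301). With the filter and no block it missed the threshold without any 1 library (0.0835 to 1). The difference between the 3 extracts for CEMIP had an unadjusted p of 0.00176 and an edgeR adjusted p of 1.

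**Figure D3:**
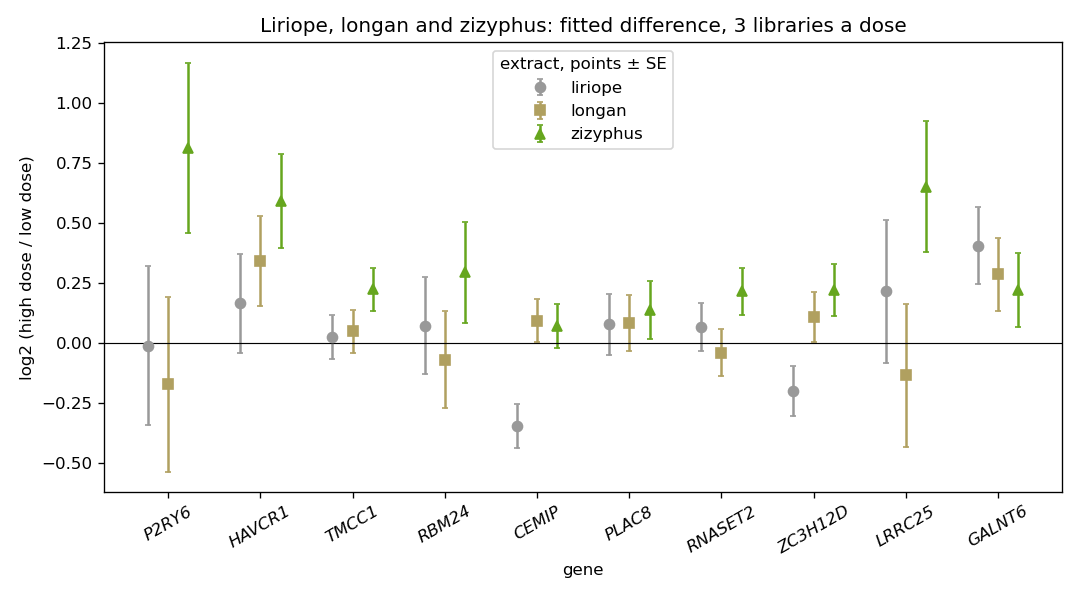
Log2 difference between the high and low dose (y axis, points, with bars of ± 1 SE) of the 10 genes (x axis) in liriope, longan and zizyphus, 3 libraries per dose. No value passed the test. Zizyphus points lie above 0 for all 10 genes, for which the share over all genes was not counted, and CEMIP in liriope is at -0.35.

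Polygala and aucklandia had 1 library per dose, so their values have no replicate check, and the intervals given are 95% exact intervals that cover counting error only. The doses are not those of the other extracts. The summed hepatocyte markers moved too, to 18173 CPM at the high dose of polygala and 20700 CPM at that of aucklandia, against 36244 to 51938 CPM in all other libraries, and the leukocyte list stood at 570 and 501 CPM there; their part in the values below was not tested. In aucklandia the genes split in both directions. RBM24 held 1.76 CPM at the low dose, 1.32 CPM at the medium dose and 20.6 CPM at the high dose, 48, 32 and 457 counts, a ratio of high to low of 11.7 (8.68 to 16.1) and the highest level of this splicing regulator in the series. ZC3H12D went from 4.83 over 7.63 to 12.7 CPM, a ratio of 2.64 (2.14 to 3.27), and TMCC1 from 19.7 over 19.1 to 40.0 CPM, a ratio of 2.03 (1.82 to 2.27).

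CEMIP, in contrast, was at 47.7, 42.5 and 15.4 CPM over the low, medium and high dose of aucklandia, 3.10 times lower at the high dose (2.75 to 3.50). PLAC8 was at 5.12, 6.19 and 2.16 CPM, 2.37 times lower (1.70 to 3.37), and GALNT6 at 1.57, 1.61 and 0.270 CPM, from 6 counts at the high dose, 5.83 times lower (2.47 to 16.8). These high-dose levels of CEMIP, PLAC8 and GALNT6 were the lowest of all 60 libraries. HAVCR1, P2RY6 and LRRC25 had ratios of 0.754 (0.402 to 1.38), 0.841 (0.382 to 1.80) and 1.35 (0.521 to 3.55), whose intervals include 1, and RNASET2 had 0.844 (0.769 to 0.926).

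Polygala gave another split. CEMIP was at 44.1, 50.1 and 90.4 CPM over the 3 doses, a ratio of high to low of 2.05 (1.90 to 2.21), opposite to aucklandia, and RBM24 was at 1.78, 1.66 and 4.28 CPM, a ratio of 2.40 (1.66 to 3.53). PLAC8 at 1.58 (1.24 to 2.01), ZC3H12D at 1.49 (1.16 to 1.94) and TMCC1 at 1.20 (1.06 to 1.37) were higher at the high dose as well. RNASET2 was at 35.3, 29.9 and 21.0 CPM, a ratio of 0.596 (0.533 to 0.667), and this library was the only 1 of 57 treated libraries not above all vehicle libraries for RNASET2. GALNT6 was 2.37 times lower (1.39 to 4.17) and P2RY6, with 12 counts at the low and 3 at the high dose, 4.23 times lower (1.14 to 23.4). Normalization matters here, since with library totals alone every ratio of high to low dose would be higher by a log2 of 0.25 in polygala and 0.09 in aucklandia.

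Genes that work beside the 10, 97 in 10 lists by function, were tested in yijin, soshiho and schisandra. The lists were drawn up by function, with earlier results of these data known, so their counts are no independent support. Of the 64 that were tested, 6 passed as higher and 3 as lower in yijin, where 3.78% and 4.01% of all genes passed as higher and lower. In soshiho 5 passed as higher and 3 as lower (2.81% and 2.27% of all genes), and in schisandra 9 as higher and 5 as lower (3.92% and 3.4% of all genes). The median log2 difference of the 64 was -0.01 in yijin, 0.03 in soshiho and 0.02 in schisandra, against -0.00 to -0.01 over all genes tested. Many of these calls were lost when 1 library was left out: 7 of 9 in yijin and 6 of 14 in schisandra were kept whichever library of the 2 doses was left out. Leaving out a library of soshiho left 1 at that dose, so a lost call there does not show that it depended on that library. In soshiho, 2 and 0 passed as higher and lower without the high-dose replicate 2, 1 and 1 without the low-dose replicate 3, and 0 as lower without the low-dose replicate 2 or the high-dose replicate 3. In schisandra, 5 passed as higher without the high-dose replicate 1, and 1 and 3 as lower without the low-dose replicate 1 and the high-dose replicate 2.

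SQSTM1, the autophagy receptor through which LRRC25 is described to act on RIG-I, rose in all 3 extracts. It went from 206 ± 3.03 to 283 ± 10.1 CPM in yijin (SD, n = 3), a log2 change of 0.46 ± 0.038 (edgeR adjusted p = 3.88e-12), and changed by 0.63 ± 0.046 in soshiho and 0.55 ± 0.038 in schisandra. RIGI itself, the RNA sensor, did not pass in any of the 3, and of the 7 genes of the list IFIH1 was lower and RELA higher in schisandra, calls lost without the low-dose replicate 1 or the high-dose replicate 2, and without the high-dose replicate 3 (IFIH1) or 1 (RELA), with edgeR adjusted p up to 0.262 and 0.422.

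Around P2RY6, the ecto-nucleotidase ENTPD2 rose in yijin, from 16.0 ± 0.301 to 20.3 ± 0.867 CPM (log2 0.34 ± 0.066, edgeR adjusted p = 0.000333, n = 3), and in schisandra (0.43 ± 0.066). No nucleotide receptor of the list passed in any of the 3 extracts. Around HAVCR1, the phosphatidylserine-bridging protein PROS1 fell in yijin (-0.22 ± 0.055) and schisandra (-0.29 ± 0.055) and the receptor MERTK fell in yijin (-0.20 ± 0.039). The PROS1 call in schisandra was lost when only the extracts compared were fitted, and the MERTK call in yijin with no filter on low counts. HAVCR1 itself was higher at both high doses. The MERTK call in schisandra (-0.13 ± 0.039) was lost without any 1 of 4 libraries, namely both of replicate 1, the high-dose replicate 2 and the low-dose replicate 3.

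Around CEMIP, its relative CEMIP2 and the hyaluronan precursor enzyme UGDH rose in yijin. CEMIP2 went from 248 ± 15.9 to 332 ± 8.57 CPM (log2 0.42 ± 0.057, edgeR adjusted p = 6.92e-07, n = 3) and UGDH from 343 ± 4.98 to 422.5 ± 0.836 CPM (0.30 ± 0.054, edgeR adjusted p = 9.27e-05). Both also passed in soshiho (0.32 and 0.28), calls lost without the high-dose replicate 2 or the low-dose replicate 3, with edgeR adjusted p up to 0.0612 and 0.124. The hyaluronidases HYAL1, HYAL2 and HYAL3 did not pass in any of the 3 extracts. Around ZC3H12D, the mRNA decay factor ZFP36 rose in schisandra from 6.18 ± 0.961 to 11.5 ± 1.56 CPM (0.92 ± 0.12, edgeR adjusted p = 3.34e-07, n = 3) and ZFP36L1 by 0.35 ± 0.055, while ZC3H12A, ZC3H12B and ZC3H12C did not pass.

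Among the splicing regulators listed beside RBM24, MBNL2 rose in yijin (0.25 ± 0.062) and schisandra (0.26 ± 0.062), a call lost in schisandra when only the extracts compared were fitted. MBNL3 passed as lower in soshiho (-0.36 ± 0.083, edgeR adjusted p = 0.00409), a call lost without either library of replicate 2 or the high-dose replicate 3. In schisandra its call (-0.26 ± 0.068) was lost without the low-dose replicate 1 (edgeR adjusted p = 0.176) and with only the extracts compared. QKI passed as lower in soshiho (-0.21 ± 0.061), a call lost without any 1 of the 4 libraries (edgeR adjusted p up to 0.268). Of the 11 tested genes of mucin-type O-glycosylation, the GALNT6 relative GALNT10 passed as higher in yijin (0.21 ± 0.059) and soshiho (0.34 ± 0.072). In yijin that call was lost without the low-dose replicate 2 or 3 or the high-dose replicate 3 (edgeR adjusted p up to 0.116), and in soshiho without the low-dose replicate 3 (0.05). GALNT16 passed as lower in yijin (-0.46 ± 0.15, edgeR adjusted p = 0.0462), a call lost without the low-dose replicate 1 or 3 or the high-dose replicate 2 or 3 (edgeR adjusted p up to 0.307). No gene of the lists for secreted nucleases (5 tested), the TMCC family (1) or the PLAC8 domain family (1) passed in any of the 3 extracts.

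Across the 19 groups with replicates, the closest profiles were sought by Pearson's r of log2(CPM + 1) group means over about 10993 genes of at least 5 CPM in their highest group. The groups share the extracts and the vehicle, so r is a description with no p. They also include the doses of yijin, soshiho and schisandra, whose values chose the 10 genes. High r among the 10 genes is therefore favoured by their choice. LRRC25 was closest to RGMB (0.981), DCDC2 and HSPA12A, and GALNT6 to SOS1-IT1 (0.972), SPP1 and RGMB (0.966), and LRRC25 and GALNT6 correlated with each other at 0.964. HAVCR1 was closest to PLAC8 (0.956), which is itself among the 10, then LGALS3 and ENTPD2 (0.942), and PLAC8 to LDHA (0.942), PDK1 and LGALS3. RNASET2 shared LDHA (0.936) after PTTG1IP (0.956) and FAM156A.

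TMCC1 was closest to ETS2 (0.972) and DTNA, and CEMIP to TM4SF1 (0.962), LRP5 and GDF15. RBM24 was closest to CYP2J2 (0.954), GCLC and LRP8, ZC3H12D to SLC22A18 (0.919), HKDC1 and MYO19, and P2RY6 to ABCC1 (0.924), YBX3 and TMEM43. Among the 10 genes themselves r ran from 0.283, for RNASET2 and GALNT6, to 0.964.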

How the data were processed

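Expected counts per gene were deposited, made by the authors with RSEM 1.3.3 from reads that STAR 2.7.3a placed on hg38; FastQC 0.11.9 and Trim Galore 0.6.5 came first, all per the submitters' processing notes. The annotation release is not given in the sources used here. Fractions, present in 10.4% of the deposited values, were rounded. Expression is relative within a library, so total RNA per cell stays unknown. Symbols came from a name table and positions from GENCODE 29.

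For the tests, edgeR 4.0.16 (R 4.3.3) was run on the 54 libraries of the 19 groups with 2 or 3 libraries, as a quasi-likelihood fit with a mean for each group. Normalization used the trimmed mean of M values and low genes were removed by filterByExpr, leaving 16924. Benjamini-Hochberg adjustment ran over all of them within a comparison, and an adjusted p under 0.05 was a call. CPM use normalized sizes over all 60 libraries. The fit was also run on counts simulated from its own means and spread, which cannot test whether its assumptions hold for these data. None of the 51 replicate pairs was identical (chi-square per degree of freedom, 2.70 to 63.9).

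The members and lists were chosen with earlier results of these data known. No dose of yijin, soshiho or schisandra was tested for the 10 genes. Named relatives are up to 4 called genes per list with the smallest p over the 3 extracts, and the text names a part of them; genes said not to have passed were named after their values were seen. Alternatives were DESeq2 1.42.0 and its size factors, library totals alone, no filter, a block for the replicate number, only the extracts compared, and leaving out each library. For the 10 genes in yijin, soshiho and schisandra, vehicle in place of the low dose was a further alternative. Wortmannin, named in the series text, is not analysed here, and 1 gene of the likeness ranking is not reported here.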

Additional observations from a re-analysis of the deposited data

How the results depend on the processing

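The 30 differences of the 10 genes between high and low dose of yijin, soshiho and schisandra kept their direction in all 310 alternative values. With the low dose kept as the reference, no fold moved by more than 1.21 times. With vehicle in its place some moved more, in both directions. LRRC25 in soshiho went from a log2 of 2.52 to 3.46, ZC3H12D in soshiho from 0.26 to 1.02 and RBM24 in yijin from 1.10 to 0.72. The log2 difference of GALNT6 in schisandra went from 0.19 to 0.09 without the 2 libraries that stand apart, an alternative chosen after seeing the data. Whether replicate numbers pair the libraries stayed unclear: 7 of 17 same-numbered high and low pairs had a correlation over 0.1 (range -0.60 to 0.636), and 11 of 17 correlated best with their own number. With the replicate block 1 of the 10 genes was called in liriope, CEMIP (edgeR adjusted p = 0.0301). With no filter CEMIP was also the 1 gene called in liriope (6.79e-05), 1 gene was called as differing between the 3 extracts, and relatives called were 1 lower in yijin, 1 lower in soshiho, and 5 higher and 3 lower in schisandra. Over the other settings and left-out libraries its adjusted p in liriope was 0.0835 to 1. With library totals alone 5 relatives were higher in schisandra. With only the extracts compared in the fit, 10 were higher in yijin, 9 higher and 6 lower in soshiho, and 4 higher and 0 lower in schisandra. Without the 2 libraries that stand apart, 1 was lower in schisandra. Leaving out 1 library at a time gave 5 to 11 higher and 1 to 6 lower in schisandra, and 1 to 6 higher and 0 to 1 lower in soshiho. The cause of these moves was not tested. The 3 to 32 counts of P2RY6 limit what can be seen for it.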
